A study of Mus musculus with 16 samples.

Results

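Keratin genes form a pair of clusters in the mouse genome, with type I keratins on chromosome 11 and type II keratins, together with the type I gene Krt18, on chromosome 15. The genes described here are the protein-coding genes of the GENCODE M21 annotation (mm10) on these chromosomes whose symbol is Krt followed by digits, each with its captured CpGs from 2 kb before the annotated start to the gene end. There are 53 such genes of 18932 protein-coding genes on the 16 chromosomes compared. Of these, 33 held a CpG that reached 10 reads in each of the 16 libraries, and together they held 602 of the 1203687 CpGs of the series. No keratin CpG lay in the window of a second protein-coding gene. The other 20 keratin genes, among them Krt13, Krt15, Krt16, Krt6a, Krt6b and the hair keratin Krt31, held none and are not analysed here.

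DNA methylation was measured by target capture bisulfite sequencing, in which probes enrich chosen regions and bisulfite turns unmethylated cytosines into bases read as T. The cells were immortalised mouse embryonic fibroblasts (MEFs), connective tissue cells grown from C57BL/6J embryos at E13.5 and immortalised by serial passage through crisis. MEF-1 came from a male and MEF-2 from a female sibling embryo, each parental culture was sequenced once, and 7 clonal lines were grown from single sorted cells of each. Below, a family is a parental culture and the 7 clonal lines grown from it, and no line carried an engineered allele or a treatment. A family stands for 1 embryo and 1 immortalised culture, so embryo, sex and culture history cannot be told apart, and p-values over lines measure the spread between clones of 1 culture. The methylation level is the percentage of reads over a CpG that were called methylated, and the level of a gene in a library is the mean over its CpGs.

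Keratins are the intermediate filament proteins of epithelial cells. Each filament pairs a type I with a type II keratin, and the pairs mark the kind of epithelium: Krt8 with Krt18 in simple epithelia, Krt5 with Krt14 in the basal layer of stratified epithelia, Krt1 with Krt10 in the layers above it, and further sets in the sheath and shaft of the hair. Fibroblasts build their filaments from vimentin instead. Krt8 and Krt18 are the earliest keratins of the embryo and the ones most readily switched on outside epithelia, which is why they are set here against all other keratins. Expression of the keratins was not analysed here, so that contrast rests on this background and not on RNA from these cells.

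The stretches shown here are parts of genes described below. They come from the GRCm38.p6 reference, the build also named mm10, and are written 5′ to 3′ on the strand of the gene with every measured CpG in capitals. They were chosen after the values were seen. The first lies before the start of Krt18, the second before the start of Krt222, and the rest lie in an intron or coding exons of genes that differed between the families. None reaches into an untranslated region.
Krt18, chr15:102027930-102028179, plus strand, before the start: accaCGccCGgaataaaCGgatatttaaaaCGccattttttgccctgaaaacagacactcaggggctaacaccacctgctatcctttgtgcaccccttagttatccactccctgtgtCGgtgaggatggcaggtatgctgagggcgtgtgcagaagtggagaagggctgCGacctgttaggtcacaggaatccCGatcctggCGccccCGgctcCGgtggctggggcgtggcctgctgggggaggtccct
Krt222, chr11:99244086-99244275, minus strand, before the start: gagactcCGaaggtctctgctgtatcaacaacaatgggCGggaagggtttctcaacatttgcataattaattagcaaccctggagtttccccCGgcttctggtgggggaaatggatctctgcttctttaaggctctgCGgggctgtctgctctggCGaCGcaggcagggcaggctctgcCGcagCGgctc
Krt14, chr11:100203514-100203760, minus strand, intron: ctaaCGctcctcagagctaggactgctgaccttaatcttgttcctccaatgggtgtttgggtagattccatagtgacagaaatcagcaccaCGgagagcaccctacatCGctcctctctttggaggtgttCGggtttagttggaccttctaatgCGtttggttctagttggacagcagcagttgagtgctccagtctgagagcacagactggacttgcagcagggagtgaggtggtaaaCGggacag
Krt88, chr15:101453480-101453624, plus strand, coding exon: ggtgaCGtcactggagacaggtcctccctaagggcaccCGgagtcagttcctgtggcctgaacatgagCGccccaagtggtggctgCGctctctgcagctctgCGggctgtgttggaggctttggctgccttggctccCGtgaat
Krt27, chr11:99350704-99350828, minus strand, coding exon: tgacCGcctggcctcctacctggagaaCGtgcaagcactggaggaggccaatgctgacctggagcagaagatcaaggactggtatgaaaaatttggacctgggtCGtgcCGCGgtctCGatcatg

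Across the 10 measured CpGs before the Krt18 start, the MEF-1 clonal lines had a mean level of 42.9% ± 5.87 (SD over 7 lines, here and below) and the MEF-2 clonal lines 31.9% ± 4.08. The 8 CpGs before the Krt222 start had 29.8% ± 5.44 and 21.5% ± 6.57. In both stretches the lines of the families overlapped. By the family comparison of single CpGs below, 1 CpG was called in each (background 20.2% of all CpGs). Over the gene body alone the Krt222 difference was 31.2 points. The 6 CpGs of the Krt14 intron had 49.4% ± 6.85 and 26.1% ± 5.92, and here the lines of the families did not overlap. The coding stretches of Krt88 and Krt27 were ordered the other way. The 6 Krt88 CpGs had 5.46% ± 5.40 in MEF-1 and 46.7% ± 8.51 in MEF-2, and the 6 Krt27 CpGs 78.0% ± 5.37 and 93.8% ± 3.91, again without overlap. In the Krt14, Krt88 and Krt27 stretches, 3, 6 and 3 of the 6 CpGs were called. The Krt14 and Krt27 stretches hold every measured CpG of these genes, so their gene levels below are the same values. Over all gene windows, the lines of the families did not overlap in 30.6%.

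The 16 libraries held from 59243669 to 90633091 calls, where 1 call is 1 read over 1 CpG. A keratin CpG was covered by a median of 29 reads per library (10 to 153), against 32 over all CpGs. Relative coverage, scaled so that the median MEF-2 clonal line is 1, was 1.28 on chromosome 15 in MEF-1 clonal line 5, and 0.741 over the keratin windows of chromosome 11 in MEF-1 clonal line 6 (0.906 over the whole chromosome). Their part in the levels was not tested beyond leaving out each line, and the counts without them stand beside the family comparison. As a check of the cell type, 6 of the 12 listed fibroblast genes with measured CpGs had them near the start. The region from 2 kb before to 500 bases after the start was at 5.94% ± 2.37 (MEF-1) and 1.91% ± 1.35 (MEF-2) for vimentin and at 1.81% ± 0.844 and 1.42% ± 0.647 for fibronectin (Fn1), both mesenchymal genes. The other 4 were methylated in at least 1 family. They were Pdgfra (44.8% ± 1.36 and 2.99% ± 1.07), Prrx1 (85.9% ± 5.88 and 16.6% ± 14.3, 3 CpGs), S100a4 (55.0% ± 7.39 and 55.7% ± 9.64) and Thy1 (98.9% ± 1.87 and 83.9% ± 12.5, 1 CpG). Methylation alone does not give the cell type.

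Keratin CpGs were more often partly methylated than CpGs of the series at large. In the parental libraries, 48.0% (MEF-1) and 56.5% (MEF-2) of the keratin CpGs had an intermediate level (10 up to 90%), against 31.2% and 35.7% of all CpGs. The CpGs of the listed epithelial junction and regulator genes stood between, at 39.4% and 48.3%. By gene, the mean over the 14 clonal lines ran from 10.8% in Krt19 to 85.9% in Krt27, with a median gene at 55.1%. No keratin gene lay under 10% or at 90% and above on this scale, 10 lay from 10 up to 40%, 11 from 40 up to 60% and 12 from 60 up to 90%. By these means Krt19, Krt77 and Krt87 lay at the lower end and Krt27, Krt83, Krt7 and Krt81 at the upper end. By family, the median keratin gene was at 51.8% (MEF-1) and 53.4% (MEF-2), and the median of all genes tested at 35.5% and 33.7%. The bins were not counted over all genes. A middle mean does not make each CpG intermediate. In Krt10, 9 (MEF-1) and 15 (MEF-2) of 44 CpGs were intermediate in the parental libraries.

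**Figure D1:**
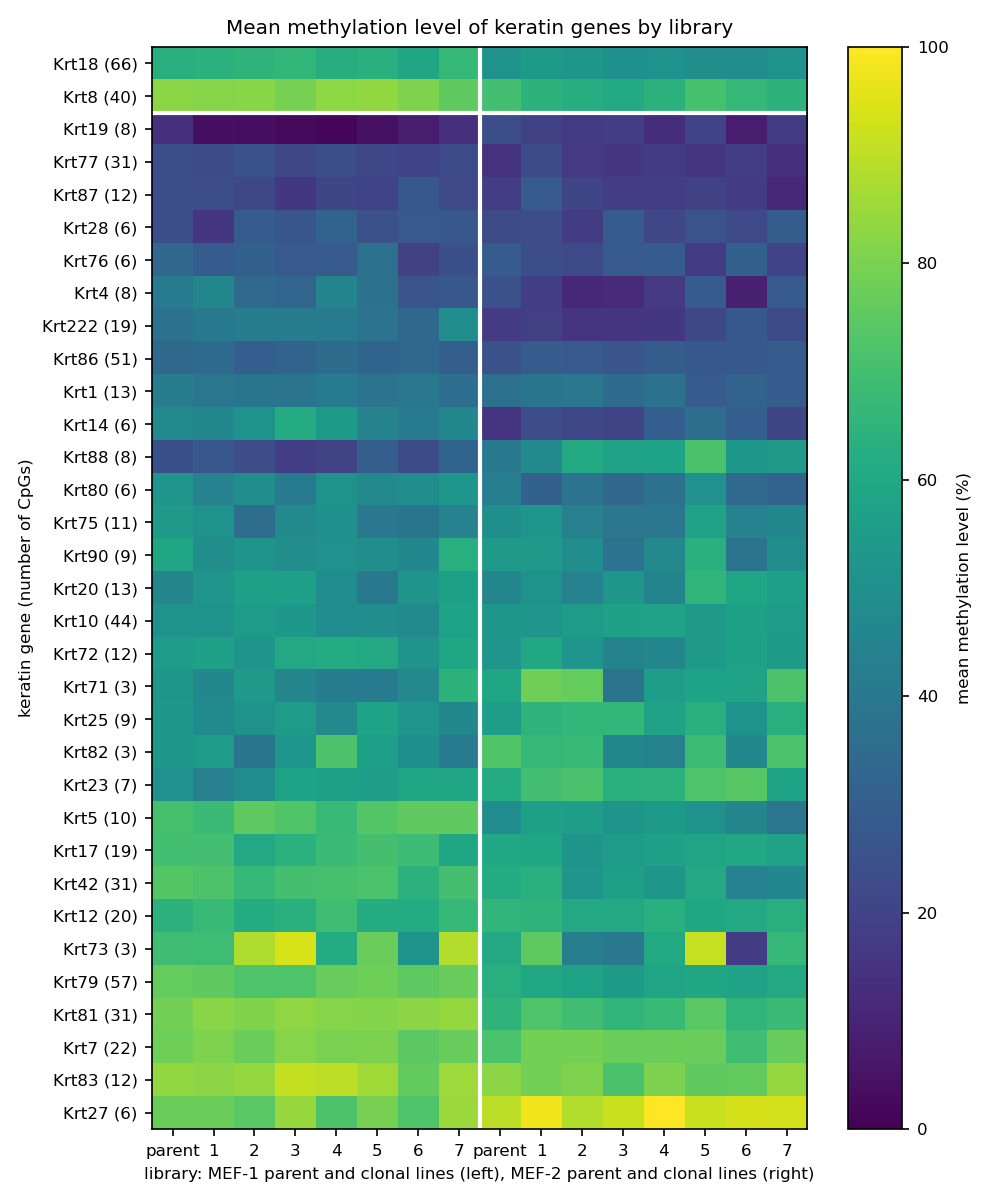
Mean methylation level (colour, %) of the 33 keratin genes with measured CpGs (rows, with the number of CpGs) in the 16 libraries (columns; each family's parental library, then clonal lines 1 to 7). Krt18 and Krt8 are above the white line and the other keratins are ordered by level, from Krt19 to Krt27; rows such as Krt88, Krt14 and Krt5 change colour between the MEF-1 and the MEF-2 columns.

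Most keratin genes with CpGs measured within 500 bases of the start were methylated over that stretch, which is not the promoter alone. Of the 11 keratin genes with at least 3 CpGs within 500 bases of the start, 0 had a mean under 10% there in either family, against 69.8% (MEF-1) and 70.2% (MEF-2) of 11224 other protein-coding genes. Within 500 bases of the start, the 100 CpGs of the keratins other than Krt8 and Krt18 had a mean level of 64.2% ± 1.62 in the MEF-1 clonal lines and 57.4% ± 2.18 in the MEF-2 clonal lines. The 241264 CpGs at the same distance in windows of other protein-coding genes had 9.30% ± 0.104 and 8.80% ± 0.164. Farther than 2000 bases into the gene the order was turned: the other keratins had 49.4% ± 1.29 and 42.8% ± 1.89 (346 CpGs), and other protein-coding genes 61.5% ± 0.418 and 60.1% ± 0.567. Only 13 keratin genes had a CpG within 500 bases of the start, and among these the levels were uneven. The start of Krt79, a keratin of sebaceous and suprabasal cells, was at 97.0% ± 2.44 in MEF-1 and 88.7% ± 3.96 in MEF-2 (11 CpGs), and that of the hair keratin Krt87 at 21.8% ± 3.47 and 19.3% ± 5.03 (12 CpGs). The start of Krt80, with 2 CpGs, was at 39.4% ± 12.7 (MEF-1) and 2.76% ± 1.91 (MEF-2). The listed epithelial genes outside the clusters had median start levels of 27.9% and 18.9% over 15 genes (2 kb before to 500 bases after the start).

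Promoters of the keratins differ in how many CpGs they hold. Of the keratin genes, 36 had a promoter in the RefSeq table of the GRCm38.p6 build (300 bases, from 250 before to 50 after the RefSeq start), with 37 promoters in all. That start can differ from the GENCODE start, from which distances are counted here. The Krt7 promoter holds 21 CpGs, and 24.8% of all 32851 promoters in the table hold at least as many. The Krt18 promoter holds 17 (31.4% of all promoters), whereas the promoters of Krt8 and Krt5 hold 6 each (56.4%) and that of Krt14 holds 5 (62.0%). Of the 37 promoters, only those of Krt18 (15 of 17 CpGs), Krt10 (2 of 2), Krt8 (1 of 6) and Krt75 (1 of 8) held measured CpGs. The start levels of the keratins other than Krt18 therefore come mostly from CpGs outside these promoters.

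Krt8 and Krt18, the pair of simple epithelia, were more methylated than the other keratins over their whole windows. In the MEF-1 clonal lines, the 106 CpGs of the pair had a mean level of 70.2% ± 1.43 (67.2 to 71.4 over the lines), against 54.0% ± 1.18 (51.9 to 55.4) for the 496 CpGs of the 31 other keratins. In the MEF-2 clonal lines these levels were 56.4% ± 1.29 (54.4 to 58.5) and 48.0% ± 1.72 (46.1 to 50.5). Within a line, the other keratins lay below the pair in 14 of 14 clonal lines, with a mean difference of -16.2 ± 1.30 points (MEF-1) and -8.41 ± 0.725 points (MEF-2). With a minimum of 20 reads the MEF-1 difference was -8.56 points. The parental libraries were ordered in the same way, at 70.4% against 54.8% in MEF-1 and 58.2% against 48.0% in MEF-2. All CpGs of the series lay lower, at 44.0% ± 0.368 and 42.4% ± 0.489. These sums over chosen genes carry no test.

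The order of the pair and the other keratins depended on the region. From 2 kb before to 500 bases after the start, the other keratins lay above the pair, by 1.54 ± 1.94 points (MEF-1) and 11.5 ± 2.57 points (MEF-2). The other keratins were at 61.7% ± 1.33 and 56.4% ± 1.81 there, and Krt8 and Krt18 at 60.1% ± 2.65 and 44.9% ± 2.11. In MEF-1 the difference was smaller than its spread between lines. The pair is uneven there, since 51 of its CpGs belong to Krt18 (53.8% ± 3.36 and 38.4% ± 2.57) and 9 to Krt8 (95.9% ± 2.83 and 81.59% ± 5.65). Near the start, then, Krt18 lay below the mean of the other keratins and Krt8 above it. Single genes of the other keratins also lay on either side of the pair: by the mean of the 14 lines, 4 genes were above Krt8 (72.9%) and 11 of the other keratins were above Krt18 (57.5%).

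**Figure D2:**
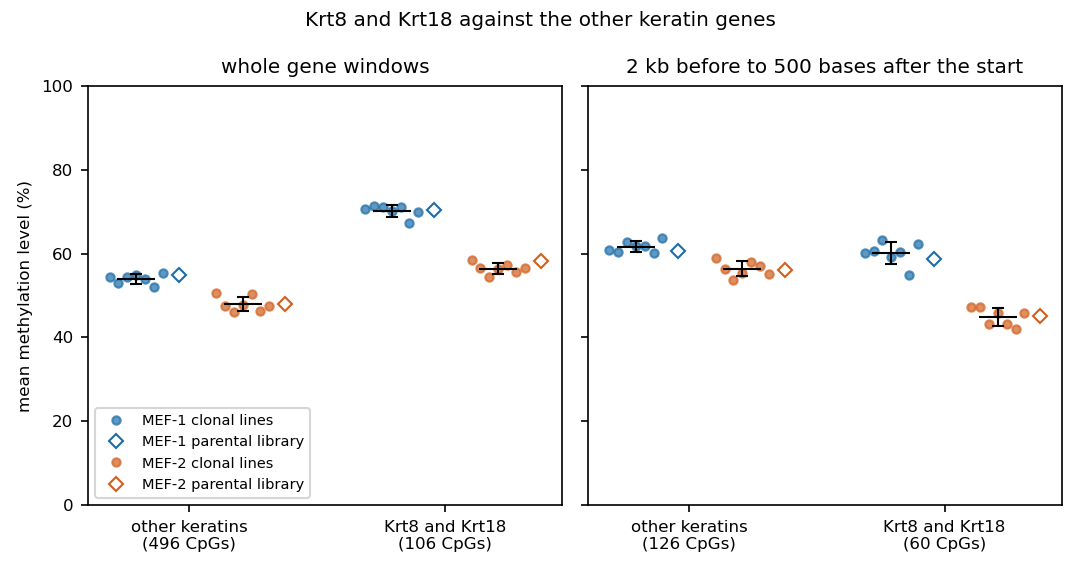
Mean methylation level (%) of Krt8 and Krt18 and of the other keratins in each library, over whole gene windows (left) and near the start (right). Points are clonal lines, black bars the mean and SD of 7 lines, and open diamonds the single parental libraries. On the left the pair lies above the other keratins in every library, and on the right the MEF-2 lines of the pair lie at 44.9% against 56.4% for the other keratins.

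Krt18 (ENSMUSG00000023043.7, chr15:102028180-102032027, plus strand) carried its low levels around the start and high levels in the gene. Within 500 bases of the start its 39 CpGs ran from 39.6% to 51.2% in the MEF-1 clonal lines (mean 47.1% ± 3.84) and from 24.6% to 33.7% in the MEF-2 clonal lines (29.0% ± 3.28), so the families did not overlap. The parental libraries were at 46.5% and 26.2%. Of these CpGs, 6 were under 10% in both families. More than 500 and up to 2000 bases after the start the 7 measured CpGs were at 98.3% ± 1.98 and 94.2% ± 1.70, and the 8 CpGs beyond 2000 bases at 97.1% ± 2.67 and 95.8% ± 2.53. The 12 CpGs more than 500 bases before the start were at 75.5% ± 3.56 and 69.0% ± 2.20. The levels were thus lowest around the start, and the family means were farther apart there than in the gene.

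Krt8 (ENSMUSG00000049382.10, chr15:101996698-102004482, minus strand) was methylated at the CpGs measured near its start. Its 9 CpGs within 500 bases of the start were at 95.9% ± 2.83 in MEF-1 (92.4 to 98.7 over the lines) and at 81.59% ± 5.65 in MEF-2 (73.4 to 88.3). Of these, 8 (MEF-1) and 5 (MEF-2) had a family mean of 90% or more. The widest gap lay in 6 CpGs more than 500 and up to 2000 bases after the start, at 78.7% ± 4.18 in MEF-1 (73.9 to 83.7) and 29.4% ± 4.19 in MEF-2 (23.1 to 36.7), with the parental libraries at 80.7% and 43.1%. The 25 CpGs farther into the gene were at 76.1% ± 3.75 and 67.4% ± 4.26. Over the measured CpGs, the partners of this pair therefore had different profiles along the gene. Their starts were not measured alike. The nearest CpG lay 9 bases from the GENCODE start in Krt18 and 171 bases in Krt8. Promoters are placed by the RefSeq start, which differs from the GENCODE start in both genes. Of the promoter CpGs, 15 of 17 were measured in Krt18 and 1 of 6 in Krt8, so the promoters cannot be compared.

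**Figure D3:**
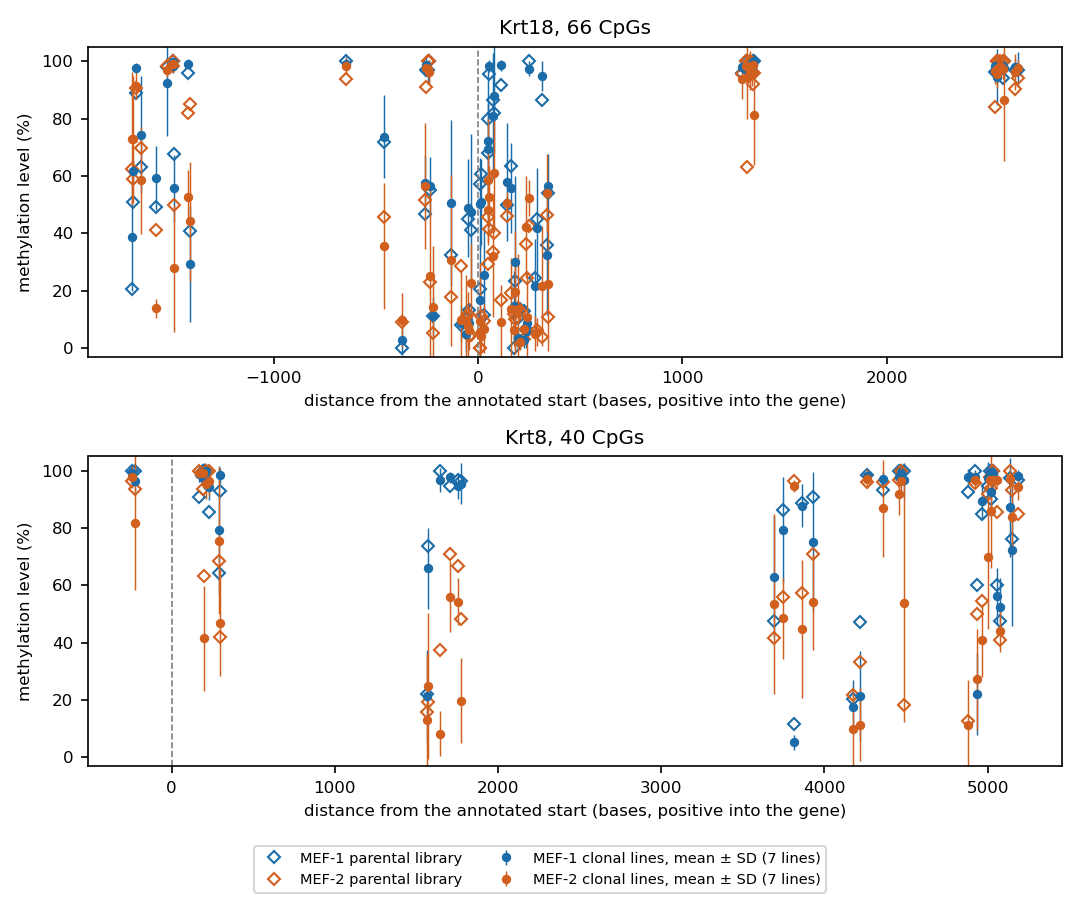
Methylation level (%) of each measured CpG of Krt18 (top, 66 CpGs) and Krt8 (bottom, 40 CpGs) against its distance from the annotated start in bases. Filled points are the mean and SD of the 7 clonal lines of a family and open diamonds the parental libraries; the low levels of Krt18 gather around the start (mean 47.1% in MEF-1 and 29.0% in MEF-2 within 500 bases), and in Krt8 the MEF-2 lines lie at 29.4% between 500 and 2000 bases after it.

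To ask which keratins differed between the families, methylated and unmethylated reads of each gene window were compared between the 7 MEF-1 and the 7 MEF-2 clonal lines with a quasi-binomial model fitted on 15161 protein-coding genes. Of the 33 keratin genes, 19 were called at an adjusted p under 0.05 (57.6%), with a background of 44.7% of all genes. Of these, 14 were higher in MEF-1 (42.4% of the keratin genes, background 29.2%) and 5 were higher in MEF-2 (15.2%, background 15.4%). The lines of the families did not overlap for 11 keratin genes (33.3%, background 30.6%), 9 of them higher in MEF-1. The median difference of the keratin genes was 4.38 points towards MEF-1, against 0.798 points over all genes tested. Differences in points are of the mean over CpGs, whereas the model uses reads summed over the window. No test of the keratins as a set was made. The parental libraries, which did not enter the fit, differed in the same direction in 19 of 19 called genes (100%, all called genes 95.4%) and in 12 of the 14 genes not called (85.7%, all genes not called 75.3%). Leaving out 1 clonal line at a time gave 18 to 20 called keratin genes, with 20 both without MEF-1 line 5 and without MEF-1 line 6.

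**Figure D4:**
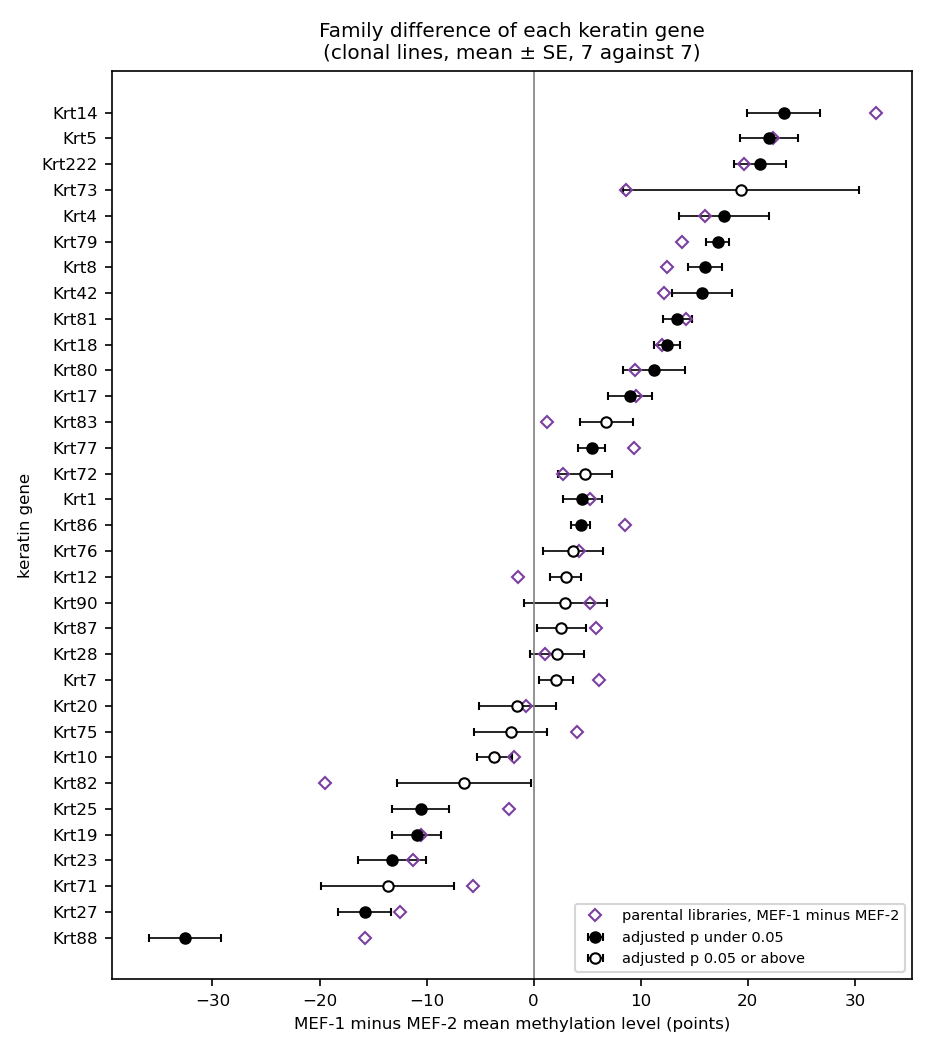
MEF-1 minus MEF-2 methylation level (points) of each keratin gene, as the mean over clonal lines with the standard error of the difference (circles) and between the single parental libraries (diamonds). Filled circles mark the 19 genes with an adjusted p under 0.05; they run from Krt88, 32.6 points higher in MEF-2, to Krt14, 23.4 points higher in MEF-1.

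Among the simple epithelial keratins, 4 of 6 tested genes were called, 2 in each direction. The background is 44.7% of all genes called, 29.2% higher in MEF-1 and 15.4% higher in MEF-2. Krt8 ranged from 75.7% to 83.6% over the MEF-1 lines (median 82.0%) and from 61.0% to 70.8% over the MEF-2 lines (median 64.6%), without overlap (difference 15.98 points, adjusted p = 5.12e-05). Krt18 ranged from 59.0% to 66.5% (median 63.8%) and from 49.0% to 54.7% (median 51.4%), also without overlap (12.5 points, adjusted p = 6.95e-06; 7.13 points with a minimum of 20 reads). Both partners were higher in MEF-1. Their parental libraries had pooled levels of 80.2% (95% Wilson interval 77.9 to 82.2) and 70.8% (68.4 to 73.1) for Krt8, and of 61.7% (59.7 to 63.8) and 53.6% (51.5 to 55.7) for Krt18, in MEF-1 and MEF-2.

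Krt19, a type I keratin of simple and ductal epithelia, was the least methylated keratin and was higher in MEF-2. Its 8 CpGs, all within the gene and none within 500 bases of the start, ranged from 1.43% to 13.6% over the MEF-1 lines (median 4.15%) and from 8.18% to 20.05% over the MEF-2 lines (median 17.8%). The ranges overlapped, and the difference, MEF-1 minus MEF-2, was -10.9 points (adjusted p = 0.000276). Its size depended on the read minimum, at -3.99 points with 5 reads (37 CpGs) and -23.9 points with 20 reads, with the call kept. With reads pooled the difference was -15.5 points. The parental cultures lay higher than most of their clones, at 13.48% in MEF-1, where 6 of 7 lines were below it, and at 24.0% in MEF-2, where 7 of 7 lines were below it. Single CpGs of each line were also set against the parent with Fisher's exact test. Of the Krt19 pairs of a line and a CpG, 0 of 56 (MEF-1) and 1 of 56 (MEF-2) were called. The background was 3.46% and 6.57% of all pairs, and Krt19 CpGs had a median of 21 and 25.5 reads in the clonal lines. The lines of a family share 1 parental library, so its own deviation would enter each of them. Krt23 was also higher in MEF-2, from 58.1% to 74.2% (median 70.0%) against 43.4% to 59.2% (median 56.9%), with overlapping ranges (13.3 points, adjusted p = 0.00413). Its call was lost with a minimum of 20 reads, where the difference, MEF-1 minus MEF-2, was -4.62 points (adjusted p = 0.0982). Krt7 (78.8% ± 2.57 and 76.7% ± 3.32) and Krt20 (51.9% ± 5.96 and 53.4% ± 7.53) did not pass the test, with adjusted p of 0.275 and 0.937.

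The basal pair differed most of the classical pairs. Krt14, the type I keratin of basal keratinocytes, ranged from 41.0% to 61.4% over the MEF-1 lines (median 46.7%) and from 20.5% to 36.0% over the MEF-2 lines (median 23.7%), a difference of 23.4 points (adjusted p = 0.000909). Krt5, its type II partner on the other chromosome, ranged from 67.8% to 75.6% (median 73.3%) and from 39.1% to 57.0% (median 51.6%), a difference of 22.0 points (adjusted p = 4.54e-06). The families did not overlap in either gene. With a minimum of 5 reads, which takes Krt14 from 6 to 9 CpGs, its levels were 59.8% ± 3.49 and 43.5% ± 5.49 and the difference 16.3 points (adjusted p = 0.00247). The parental libraries were at 47.5% and 15.5% for Krt14 and at 71.0% and 48.7% for Krt5. In Krt14 all 7 MEF-2 lines were above their parental library, whose pooled level was 17.0% (95% Wilson interval 13.0 to 21.9), and 3 of 7 MEF-1 lines were above theirs. Over both genes, 7 of 16 CpGs were called (43.8%, background 20.2% of all CpGs), all higher in MEF-1. The Krt14 CpGs lie 3793 to 4028 bases after its GENCODE start, and 0 CpGs within 500 bases of the GENCODE start of either gene were measured.

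Of the suprabasal and stratified keratins, 5 of 8 tested genes were called, all higher in MEF-1 (background 44.7% called, 29.2% higher in MEF-1). Krt79 ranged from 72.4% to 78.0% over the MEF-1 lines (median 75.6%) and from 54.5% to 60.3% over the MEF-2 lines (median 58.3%), without overlap over 57 CpGs (17.2 points, adjusted p = 1.87e-06). Krt4, a keratin of oral and oesophageal lining, ranged from 26.5% to 46.0% and from 9.05% to 28.7%, which overlapped (17.7 points, adjusted p = 0.00172). Krt80 ranged from 41.7% to 52.6% and from 31.1% to 50.5%, which overlapped because of 1 MEF-2 line (11.2 points, adjusted p = 0.00595). The Krt80 difference lay in its 2 CpGs near the start (39.4% and 2.76%), and the 4 CpGs farther into the gene were at 52.1% ± 4.01 and 53.6% ± 9.74. With a minimum of 5 reads the MEF-2 lines were at 34.0% ± 7.86 in Krt4, a difference of 18.1 points (adjusted p = 0.00240). With a minimum of 20 reads the differences were 28.0 points for Krt4 and 37.6 points for Krt80, and near the start that of Krt79 was 8.26 points, all still called. For Krt77 the difference was 5.42 points (22.5% ± 1.78 and 17.1% ± 2.9, adjusted p = 0.0315), and the call was lost when MEF-1 line 2 or 3, or MEF-2 line 2, 3, 4 or 7, was left out (adjusted p from 0.0503 to 0.0579). It was also lost with a minimum of 5 reads (1.29 points, adjusted p = 0.135) and without MEF-1 lines 1, 4 and 5 (adjusted p = 0.108), whereas a minimum of 20 reads gave 8.67 points. Of the epidermal pair of the upper layers, Krt1 was 4.52 points higher in MEF-1 (38.8% ± 1.58 and 34.3% ± 4.55, adjusted p = 0.00411). With reads pooled, as the model takes them, the Krt1 difference was 8.41 points. By the exact permutation test, which uses the mean over CpGs, its adjusted p was 0.0521. Over the gene body alone the difference was -0.808 points. Over the 4 Krt1 CpGs near the start, which are also the 4 left by a minimum of 20 reads, it was 16.5 points (adjusted p = 0.000239), and a minimum of 5 reads gave 10.3 points (adjusted p = 0.000538). Krt10 (51.8% ± 3.83 and 55.5% ± 2.01), Krt12 of the cornea (64.7% ± 3.23 and 61.7% ± 2.12) and Krt76 of the palate (28.2% ± 5.44 and 24.6% ± 4.95) did not pass, with adjusted p of 0.134, 0.523 and 0.497.

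Krt17, the 1 stress keratin with measured CpGs, was higher in MEF-1 (65.8% ± 4.68 and 56.8% ± 2.65, adjusted p = 0.00118), with ranges of 59.2% to 70.5% and 51.7% to 59.4% that overlapped. Near the start (2 kb before to 500 bases after) the Krt17 difference was 4.21 points and no longer passed (adjusted p = 0.546). The called hair keratins went in both directions, and their share of genes called was below that of all genes (44.7%) in both classes. Of the inner root sheath and companion layer keratins, whose cells surround the growing hair, 2 of 7 tested genes were called. Both were higher in MEF-2 (background 15.4%). By single CpGs, 21 of the 50 of this class were called (42.0%, background 20.2% of all CpGs). Of these, 9 were higher in MEF-1 (background 11.6%) and 12 higher in MEF-2 (background 8.53%). Krt27 ranged from 72.0% to 84.9% over the MEF-1 lines and from 88.5% to 100% over the MEF-2 lines without overlap (MEF-1 minus MEF-2 -15.8 points, adjusted p = 0.00028), and Krt25 was at 51.2% ± 4.39 and 61.7% ± 5.49 (-10.6 points, adjusted p = 0.00169). With a minimum of 5 reads these differences shrank to -4.79 points for Krt27 (8 CpGs, adjusted p = 0.0272) and -0.676 points for Krt25 (18 CpGs, adjusted p = 0.0446), and with reads pooled that of Krt25 was -16.2 points. Of the hair shaft keratins, 2 of 5 were called and both were higher in MEF-1 (background 44.7% called, 29.2% higher in MEF-1). By single CpGs, 31 of 109 of that class were called (28.4%, background 20.2%), 24 higher in MEF-1 and 7 higher in MEF-2. Krt81 ranged from 80.9% to 84.2% and from 65.3% to 74.3% without overlap (13.4 points, adjusted p = 1.54e-06; 20.2 points with a minimum of 20 reads). Krt86, named after its values were seen, was at 32.6% ± 2.08 and 28.2% ± 1.10 (adjusted p = 0.00503). Krt83 (85.0% ± 4.99 and 78.2% ± 4.14) did not pass at an adjusted p of 0.0666, but did pass without MEF-1 line 6 (0.0312), without MEF-2 line 7 (0.0331), by limma on the levels (0.0198) and by the exact permutation test (0.0313). Krt87 was at 21.8% ± 3.47 and 19.3% ± 5.03 (adjusted p = 0.649), but it passed with a minimum of 5 reads, 11.3 points higher in MEF-1 over 23 CpGs (adjusted p = 0.00209).

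Of the 4 measured keratins that belong to none of these classes here, 3 were called (background 44.7% of all genes). Krt88 (ENSMUSG00000063971.7) had the largest family difference of the 33 genes. Its 8 CpGs, at the end of the gene, ranged from 18.4% to 32.4% over the MEF-1 lines (median 23.6%) and from 47.7% to 71.1% over the MEF-2 lines (median 57.5%), 32.6 points higher in MEF-2 (adjusted p = 4.34e-05). All 7 MEF-2 lines were above their parental library (40.3%), whereas 3 of 7 MEF-1 lines were above theirs (24.6%). Krt222 (ENSMUSG00000035849.14), whose 19 CpGs all lie within 500 bases of the start, ranged from 33.4% to 49.1% (median 40.9%) and from 15.2% to 27.6% (median 18.9%), 21.1 points higher in MEF-1 (adjusted p = 9.31e-05; 32.4 points with a minimum of 20 reads). Krt42 ranged from 64.3% to 72.0% and from 44.5% to 63.4%, 15.7 points higher in MEF-1 (adjusted p = 0.000628). In each of these 3 genes the families did not overlap (background 30.6% of all genes).

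The comparison was also made for single CpGs, over all 1203687 of them. Of the 602 keratin CpGs, 189 were called (31.4%, background 20.2%). Of these, 135 were higher in MEF-1 (background 11.6%) and 54 higher in MEF-2 (background 8.53%). The median size of the difference at called CpGs was 40.8 points in the keratins and 38.6 points over all CpGs. In 20 keratin genes, 38 called CpGs differed by more than 50 points (6.31% of keratin CpGs, 4.34% of all CpGs). Of these, 28 were higher in MEF-1 (73.7%, all CpGs 60.4%). Without MEF-1 line 5 and without MEF-1 line 6 the number called was 165 and 176. Krt8 and Krt18 held 31 of the called CpGs among their 106 (29.2%), 28 of them higher in MEF-1, and the other keratins 158 of 496 (31.9%), 107 higher in MEF-1.

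The widest differences of single CpGs are shown with 30 bases of their context, the measured CpG in capitals and the sequence on the strand of the gene. The first group was higher in MEF-1.
Krt18 coding exon, 114 bases after the start, chr15:102028280-102028309: tgagcttcacaactCGctccaccaccttct
Krt8 intron, 1645 bases after the start, chr15:102002823-102002852: gtggttacagggccCGgcaatttcctccaa
Krt8 intron, 4882 bases after the start, chr15:101999586-101999615: ctgggttggaggatCGgcaagtgtcaacca
The second group was higher in MEF-2.
Krt8 intron, 3816 bases after the start, chr15:102000652-102000681: ccttcaccttcaccCGctgactcctggtct
Krt20 intron, 7417 bases after the start, chr11:99430719-99430748: ggctctgagcatcaCGgaatgtgtgcccct
Krt75 5′ UTR, 43 bases after the start, chr15:101573847-101573876: ctacgaatctacctCGgagctcctgtgctg

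At the Krt18 exon CpG the MEF-1 lines were at 98.6% ± 1.80 and the MEF-2 lines at 9.20% ± 12.7, where MEF-2 line 1 stood at 37.5% and the other six lines between 0% and 8.00% (mean 4.48% without line 1). Over the 7 lines of a family, 221 of 224 MEF-1 reads and 23 of 211 MEF-2 reads were methylated. The Krt8 CpG at 1645 bases was at 96.8% ± 4.05 and 8.30% ± 7.87, with the MEF-2 parental library at 37.5% of 32 reads (95% Wilson interval 22.9 to 54.7). The Krt8 CpG at 4882 bases was at 97.9% ± 2.79 and 11.2% ± 15.7, where MEF-2 line 5 stood at 43.3% and the mean without it was 5.86%. Within the same gene, the CpG at 3816 bases was at 5.24% ± 2.66 in MEF-1 and at 94.7% ± 2.01 in MEF-2, so introns of Krt8 held CpGs of opposite order. The Krt20 CpG was at 13.0% ± 7.25 and 97.2% ± 2.38, although Krt20 as a whole did not pass the test. The Krt75 CpG was at 23.3% ± 20.97 and 95.7% ± 7.5, with MEF-1 lines spread from 0% to 60% at 130 reads in all.

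Keratin CpGs had a lower fidelity score than the average CpG. This score of the study counts how many of the 14 clonal lines have a level of 0 to 10, 40 to 60 or 90 to 100%, near those a single cell can hold, and divides by 14. It was computed here from the counts and equalled the deposited score at all 1203687 CpGs. Its mean was 0.749 over the keratin CpGs, 0.833 over all CpGs, 0.793 over those of the listed epithelial junction and regulator genes and 0.856 over CpGs in windows of other protein-coding genes. It was under 0.75 at 46.3% of the keratin CpGs and at 28.9% of all CpGs, and it was 1 at 15.1% and 37.0%. Krt8 and Krt18 had a mean score of 0.773 and the other keratins 0.744. By class, the mean was 0.634 for the basal keratins, 0.663 for the inner root sheath and companion layer keratins and 0.800 for the hair shaft keratins. By gene, the score was highest in Krt10 (0.901) and Krt77 (0.862), and lowest in Krt82 (0.452) and Krt73 (0.524), with 3 CpGs each and named after their values were seen. It was 0.580 in Krt4 and 0.607 in Krt14. Neighbouring CpGs are not independent, so no test is given for these means.

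The share of such levels was also taken over the sites with an intermediate parental level alone. At the keratin CpGs among them, 59.3% ± 4.38 of the MEF-1 and 65.1% ± 4.19 of the MEF-2 clonal levels were at 0 to 10, 40 to 60 or 90 to 100%, and over all CpGs the same shares were 61.1% ± 3.71 and 62.9% ± 3.39. At these sites the means of the keratins and of all CpGs differed by less than the SD between lines. Both shares come from the same lines and the difference within a line was not taken, so this does not show that they are alike. All 7 clonal lines of a family were below 10% or at 90% and above at 29.7% (MEF-1) and 23.9% (MEF-2) of keratin CpGs, against 50.8% and 47.3% of all CpGs. Lines at opposite ends of the scale, with at least 1 below 10% and 1 at 90% or above, were found at 7 keratin CpGs in MEF-1 (1.16%, all CpGs 0.454%) and at 9 in MEF-2 (1.5%, all CpGs 1.19%).

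Clonal lines were then set against the parental culture of their family, CpG by CpG, with Fisher's exact test and an adjustment over all CpGs of the line. This test covers counting error between a pair of libraries, and its calls depend on depth. A minimum of 20 reads gave 9.54% (MEF-1) and 15.3% (MEF-2) of keratin pairs called, against 5.68% and 10.4% of all pairs, and thinning to 10 reads gave 0% in both. In MEF-1, 208 of 4214 pairs of a line and a keratin CpG were called (4.94% ± 3.26 over the lines, background 3.46%), from 8 CpGs in line 5 to 48 in line 2. Lines 1, 4 and 5 had 9, 10 and 8 called CpGs and lines 2, 3, 6 and 7 had 48, 47, 47 and 39. The same split was seen over all CpGs. Lines 1, 4 and 5 had 1.49%, 1.34% and 1.54% of them called. Lines 2, 3, 6 and 7 had 5.53%, 4.81%, 4.95% and 4.54%. In MEF-2, 416 of 4214 pairs were called (9.87% ± 2.74, background 6.57%), from 31 CpGs in line 3 to 83 in line 6. MEF-2 lines 3 and 6 were also lowest and highest over all CpGs (4.68% and 7.93%). Clones were higher than the parent at 93 and lower at 115 of the called pairs in MEF-1, and higher at 225 and lower at 191 in MEF-2. The share of keratin CpGs was above that of all CpGs in 13 of 14 lines, in MEF-1 line 1 only just (1.495% against 1.493%), and below it in MEF-1 line 5.

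**Figure D5:**
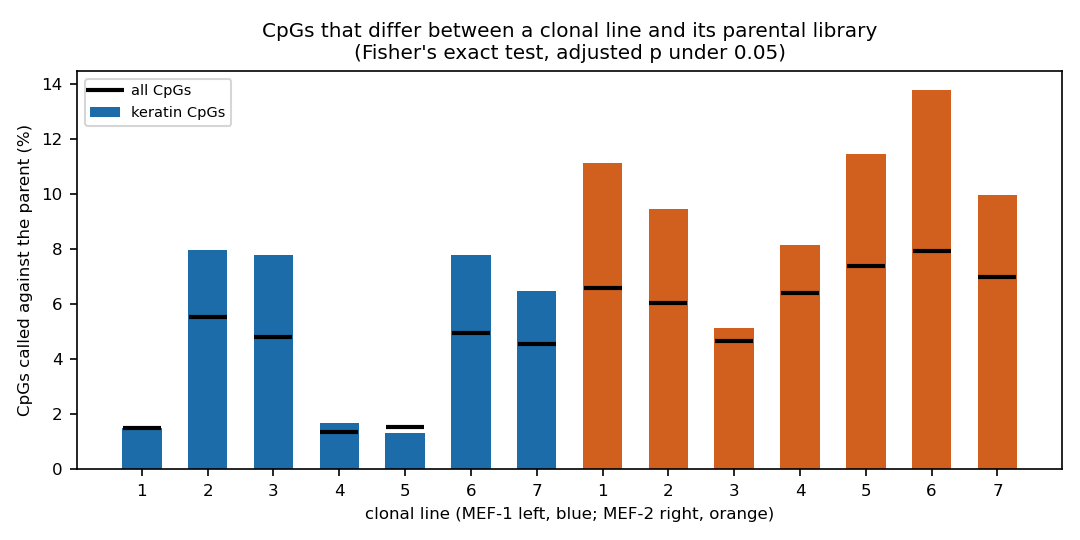
Share of CpGs (%) called by Fisher's exact test between a clonal line and the parental culture. Bars are keratin CpGs, from 1.33% in MEF-1 line 5 to 13.8% in MEF-2 line 6, and black marks all CpGs. MEF-1 lines 1, 4 and 5 are lowest in both.

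Calls at the same CpG in several lines were counted next, beside the same share over all CpGs. In MEF-1, 134 of the 602 keratin CpGs were called in at least 1 line (22.3%, all CpGs 15.4%), 52 in at least 2 (8.64%, all CpGs 5.43%) and 5 in at least 4 (0.831%, all CpGs 0.735%). In MEF-2, 242 were called in at least 1 line (40.2%, all CpGs 25.4%), 14 in at least 4 (2.33%, all CpGs 2.43%) and 2 in at least 6 (0.332%, all CpGs 0.370%). No keratin CpG was called in all 7 lines of a family. In Krt20, a keratin of gut lining, 27.5% of the MEF-2 pairs were called, over 12 of its 13 CpGs and in 7 of 7 lines, with 18 higher and 7 lower than the parent. Such calls depend on depth. Krt20 had a median of 57 reads per CpG in the MEF-2 clonal lines, against 29 over all keratin CpGs and libraries. Krt72, named after its values were seen, had 23.8% called at 49 reads, and Krt4 23.2% at 35 reads. The part of depth in single genes was not tested. In Krt4 the calls went mostly down, with 10 of 11 in MEF-1 and 12 of 13 in MEF-2 lower than the parent. Of its MEF-1 pairs, 19.6% were called (background 3.46%). Krt10 went mostly up in MEF-2, with 26 of 29 calls higher, and Krt42 mostly down, with 28 of 32 calls lower. Their MEF-2 shares were 9.42% and 14.7% of pairs called (background 6.57%). Krt8 had 10 of 280 pairs called in MEF-1 (3.57%, background 3.46%), all of them lower than the parent. In MEF-2 it had 27 of 280 (9.64%, background 6.57%), with 21 lower. Krt18 had 14 of 462 called in MEF-1 (3.03%), 11 of them higher, and 42 of 462 in MEF-2 (9.09%), 24 of them higher. The direction of calls was not counted over all CpGs. The calls of several lines share 1 parental library, so a chance deviation of that library would enter all of them.

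Distances between whole profiles gave the same order of the families. Over keratin CpGs, clonal lines of MEF-1 differed from the parent by a mean absolute 8.29 to 10.8 points, and those of MEF-2 by 11.8 to 13.1 points. Over all CpGs these ranges were 6.47 to 7.78 and 8.20 to 8.56 points. All 7 lines lay above the parental library in 1 keratin gene of MEF-1 (Krt81; 3.03%, all genes 9.003%) and in 4 of MEF-2 (Krt14, Krt88, Krt81 and Krt86; 12.1%, all genes 11.5%). All 7 lay below it in 3 of MEF-1 (Krt42, Krt75 and Krt1; 9.09%, all genes 7.53%) and in 5 of MEF-2 (Krt12, Krt19, Krt17, Krt82 and Krt79; 15.2%, all genes 7.39%). Krt75, Krt82 and Krt86 are named here after their values were seen.

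Epithelial and mesenchymal genes outside the keratin clusters were compared with the same gene fit, in which 44.7% of all genes were called. Of 18 epithelial junction and regulator genes (such as the cadherin gene Cdh1), 7 were called, 5 higher in MEF-1 and 2 higher in MEF-2, with a median difference of 0.300 points. Of 11 fibroblast genes tested, 2 were called, Pdgfra higher in MEF-1 (10.8 points, adjusted p = 6.77e-08) and Col1a1, a collagen gene, higher in MEF-2 (15.95 points, adjusted p = 7.90e-06). The share of genes called was below that of all genes in both lists. By single CpGs the epithelial list had 377 of 1377 called (27.4%) and the fibroblast list 82 of 482 (17.0%), on either side of the background of 20.2%. Near the start, 0 of 15 epithelial genes with at least 3 CpGs there had a mean under 10% in both families, and 4 had one in MEF-1 alone. With the same minimum of 3 CpGs, 0 of the keratin genes in the classes above had one in either family. Of the 47 keratin-associated protein genes, which encode matrix proteins of the hair shaft, 0 held a CpG with enough reads and they are not analysed here.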

How the data were processed

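Target capture bisulfite sequencing covered 16 libraries. Per the labels and the study's methods, the authors trimmed reads with Trim Galore 0.6.0, aligned them to mm10 with Bismark and combined the strands of each CpG; removal of duplicates is not stated. The deposited values are counts of methylated and unmethylated reads per CpG, not normalized, and the fidelity score deposited by the authors is a fraction of the clonal lines. Percent columns and a neighbour similarity score, also deposited by the authors, were not used.

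The analysis kept CpGs that reached 10 reads in each of the 16 libraries, on 16 chromosomes. All 602 keratin CpGs lie at a CpG of the reference. Genes needed at least 3 CpGs. The quasi-binomial F-test (dispersion not below 1) used the 14 clonal lines, with Benjamini-Hochberg adjustment over all CpGs or genes, in Python 3.11.15 with numpy 2.4.6 and scipy 1.17.1. Fisher's exact test, the exact two-sided permutation test of 7 against 7 lines (smallest p 0.000583) and limma 3.58.1 on levels were also run. The quasi-binomial, Fisher and permutation tests were checked on simulated data, limma was not. Intervals are 95% Wilson intervals and cover counting error only. Alternatives were read minimums of 5 and 20, thinning to 10 reads, a replicate block, other windows, pooled reads, each gene once, and leaving out MEF-1 lines 1, 4 and 5 or single lines.

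Members, gene lists and tests were chosen with earlier results of these data known. Genes named are Krt8 and Krt18, classical pairs and sets, beyond these the 5 genes with the largest called difference in each direction, the 3 highest and 3 lowest levels, and for CpGs the 3 largest called differences in each direction; other names are marked. Krt85 is not analysed here, and 1 sequence is not reported here.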

Additional observations from a re-analysis of the deposited data

Results flagged for a closer look

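Of 54 groups of 7 clonal lines (25 genes and 2 sums, in each family), 3 held a line far from the others by Dixon's test, which chance alone flags in about 1 in 20 groups. Krt80 was at 50.5% in MEF-2 line 5, where the next line was at 37.9% and the lowest at 31.1%. Krt7 was at 69.4% in MEF-2 line 6, where the next line was at 76.6% and the highest at 79.1%. The mean over Krt8 and Krt18 was lowest in MEF-1, at 67.2%, in line 6, the line with a relative coverage of 0.741 over the keratin windows of chromosome 11 and 1.04 over those of chromosome 15, where both genes lie.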

How the results depend on the processing

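Depth limits the clone and parent comparison: thinned to 10 reads per CpG, Fisher's test called 0% of keratin pairs and 0% of all pairs in either family, with 2.61% and 3.96% of keratin pairs (MEF-1 and MEF-2) and 1.71% and 2.48% of all pairs at an unadjusted p under 0.05; no other tool was run on them. With a minimum of 20 reads the calls were 9.54% and 15.3% (all CpGs 5.68% and 10.4%). The parental libraries have no replicates, and CpGs of a gene are not independent.

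The family comparison of CpGs gave 100 calls of the 259 keratin CpGs left with a minimum of 20 reads (all CpGs 23.2% called). Under the other alternatives the lowest count was 126 of 602, without MEF-1 lines 1, 4 and 5 (all CpGs 14.1%). The highest was 267 of 962, with a minimum of 5 reads (all CpGs 18.2%). Gene calls numbered 10 of the 14 genes with enough CpGs near the start (all genes 43.2%), and 16 to 22 otherwise. The 16 were of 23 genes with a minimum of 20 reads (all genes 48.5%) and of 31 over the gene body (42.6%). The 22 were of 34 genes with a minimum of 5 reads (all genes 42.6%). Leaving out single lines gave 165 to 178 CpG calls and 18 to 20 gene calls. Without MEF-1 line 5, with 165 and 20, the shares were 18.3% of all CpGs and 41.7% of all genes. The clone numbers pair no samples, since deviations of lines with the same number were correlated by -0.034 to 0.023 and no line correlated best with its own number. With the replicate block, 153 CpGs (all CpGs 17.2%) and 20 genes (all genes 39.2%) were called.

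Levels of the other keratins moved with a minimum of 20 reads (51.2% and 43.6% in MEF-1 and MEF-2), near the start (61.7% and 56.4%) and, in MEF-1, with a minimum of 5 reads (52.7%) and with each gene counted once (51.1%). Levels of Krt8 and Krt18 moved with a minimum of 20 reads (59.7% and 49.9%), near the start (60.1% and 44.9%), with each gene counted once (72.3% and 58.1%), over the gene body in MEF-1 (72.8%) and with reads pooled in MEF-2 (54.6%). Their difference, other keratins minus the pair, was reversed near the start (1.54 and 11.5 points). It moved with a minimum of 20 reads (-8.56 and -6.26), with each gene counted once (-21.2 and -10.3), in MEF-1 with a minimum of 5 reads (-18.7) and over the gene body (-18.3), and in MEF-2 with reads pooled (-7.05). The cause of these shifts was not tested, beyond the change of CpGs that each alternative makes.

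Of the 25 named genes, 16 kept direction and call under each alternative that gave them a value. With too few CpGs, 6 genes had none with a minimum of 20 reads, 13 none near the start and 2 none over the gene body. Of the called genes, only Krt1 turned its direction (-0.808 points over the gene body). Uncalled differences turned for Krt7 (-2.10) and Krt76 (-5.16) with a minimum of 5 reads, for Krt20 without MEF-1 lines 1, 4 and 5 (2.10), for Krt87 over the gene body (-6.24) and for Krt20 (1.08) and Krt76 (-2.02) with reads pooled. For Krt20 the range without single lines was -3.04 to 0.466, turned without MEF-1 line 5 and without MEF-2 line 5.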
